A study of Mus musculus with 12 samples.

Results

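Somites, the segments that later form vertebrae, ribs and trunk muscle, are cut one after another from the presomitic mesoderm at the tail end of the embryo. The 10 genes described here mark that tissue and its segmentation clock. They are Wnt3a and Cyp26a1 of the tailbud, the presomitic mesoderm transcription factors Tbx6 and Msgn1, the clock and Notch genes Hes7, Lfng, Dll1 and Dll3, and the segment boundary genes Mesp2 and Ripply2. They were taken by symbol from a table of 41079 genes that holds all 10. A count filter on low values left 20771 genes, with 9 of the 10 among them; Ripply2 was the gene that failed.

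The 12 mouse embryos, each sequenced whole, were bred from Mfsd12 heterozygotes in timed matings and taken between 10.0 and 11.0 days post-fertilization. The labels give 4 embryos as Mfsd12 knockout, 4 as heterozygous and 4 as wild-type, with no further allele or treatment. The way the allele was made and the strain are not given in the sources used here. Mfsd12 is a transporter-like protein in the membranes of lysosomes and melanosomes, where cysteine import needs it, and the comparisons ask how expression differed with 1 or both copies disrupted.

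Mfsd12 itself averaged 2.97 ± 0.542 CPM in knockout, 5.84 ± 2.56 CPM in heterozygous and 11.9 ± 3.23 CPM in wild-type embryos (SD, n = 4 each; CPM, the gene's counts relative to the scaled library total). The library labelled heterozygous 2 stood at 2.57 CPM, among the knockouts (2.31 to 3.56 CPM), whereas the other heterozygous embryos lay between 5.91 and 8.84 CPM. That library is kept under its label, and the estimates against heterozygous embryos are also given without it. The libraries held 53133084 to 67977990 counted reads. Ddx3y, a Y-linked gene, was above 1 CPM in 3 knockout, 0 heterozygous and 3 wild-type embryos, so sex was not balanced over genotypes. Each title begins with a number of no stated meaning, and the numbers 4 and 18 each hold 1 knockout, 1 heterozygous and 2 wild-type embryos.

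In the tailbud, Wnt signals such as Wnt3a keep progenitors of the body axis going, and Cyp26a1 protects them by breaking down retinoic acid, which comes from the formed somites. Cells that leave the tailbud as paraxial mesoderm switch on Msgn1 and Tbx6, and mouse embryos without Tbx6 form extra neural tubes in place of posterior somites. Within the presomitic mesoderm, Notch signalling runs in waves: the ligand Dll1 activates Notch, Hes7 represses its own gene and others in cycles, Lfng adds sugars to Notch that alter its response to ligands, and Dll3 acts inside the same cell against Notch signalling. Where a wave stops, Mesp2 sets the next boundary and Ripply2 then switches off the Mesp2 and Tbx6 programme. Dll1, Dll3, Lfng and Wnt3a are also made in the neural tube, so a whole embryo mixes sources for them, whereas Tbx6, Msgn1, Mesp2 and Hes7 are largely restricted to the presomitic mesoderm at this age. In whole embryos, fewer cells of a type and less RNA per cell cannot be told apart.

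The promoter windows of the 4 restricted genes and of Lfng are shown because these genes are regulated by one another's pathways, and the first 4 varied most between the embryos. Each window holds the 250 bases before the RefSeq transcription start, from the RefSeq table of build GRCm38.p6, written 5′ to 3′ on the gene's strand. Capitals mark matches, on both strands, to the short motifs TGGGAA of RBPJ (the DNA-binding partner of Notch), CACGTG (an E-box of the kind that Hes and other bHLH factors bind), AGGTGT (T-box factors) and CTTTGA (TCF/LEF factors of the Wnt pathway).
Tbx6: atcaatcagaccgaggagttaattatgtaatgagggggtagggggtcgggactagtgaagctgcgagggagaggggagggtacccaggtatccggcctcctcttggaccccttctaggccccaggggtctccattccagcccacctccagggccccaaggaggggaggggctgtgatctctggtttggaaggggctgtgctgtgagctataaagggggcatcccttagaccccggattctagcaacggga
Msgn1: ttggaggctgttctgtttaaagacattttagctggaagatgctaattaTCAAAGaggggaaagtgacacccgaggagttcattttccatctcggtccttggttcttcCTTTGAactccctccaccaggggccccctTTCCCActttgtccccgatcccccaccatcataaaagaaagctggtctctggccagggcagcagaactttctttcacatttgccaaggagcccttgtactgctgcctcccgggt
Mesp2: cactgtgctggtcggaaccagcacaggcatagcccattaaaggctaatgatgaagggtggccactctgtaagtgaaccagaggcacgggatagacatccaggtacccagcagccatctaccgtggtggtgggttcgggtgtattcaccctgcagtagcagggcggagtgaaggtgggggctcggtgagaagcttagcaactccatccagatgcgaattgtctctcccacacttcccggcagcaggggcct
Hes7: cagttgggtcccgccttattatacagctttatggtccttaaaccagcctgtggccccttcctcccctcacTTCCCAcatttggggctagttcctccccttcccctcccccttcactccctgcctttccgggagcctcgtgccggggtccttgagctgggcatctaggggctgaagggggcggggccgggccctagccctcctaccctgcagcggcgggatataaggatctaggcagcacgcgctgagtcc
Lfng: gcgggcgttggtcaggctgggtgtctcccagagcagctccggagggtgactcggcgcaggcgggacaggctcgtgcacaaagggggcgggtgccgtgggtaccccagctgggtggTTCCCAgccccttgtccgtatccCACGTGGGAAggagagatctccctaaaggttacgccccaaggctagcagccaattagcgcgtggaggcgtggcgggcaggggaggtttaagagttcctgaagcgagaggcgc
These windows lie at chr7:126781233-126781482 (+ strand) for Tbx6, chr12:11208949-11209198 (- strand) for Msgn1, chr7:79810477-79810726 (+ strand) for Mesp2, chr11:69120203-69120452 (+ strand) for Hes7 and chr5:140607091-140607340 (+ strand) for Lfng.

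The Msgn1 window held 1 RBPJ match and 2 TCF/LEF matches, Hes7 held 1 RBPJ match, and Lfng held 2 RBPJ matches, of which 1 overlaps its single E-box in the longest run of capitals. The windows of Tbx6 and Mesp2 held no match to these letters. Over all 10 genes, which have 11 windows, 4 genes held a match. The fourth was Cyp26a1, whose window at chr19:37697558-37697807 (+ strand) held 2 T-box matches facing opposite ways. Motifs this short are common: of 32851 windows of the same length, 21.6% held the RBPJ letters, 6.02% the E-box, 11.8% the T-box letters and 13.8% the TCF/LEF letters. The share of windows that held any of these motifs is not given here, so the count of 4 genes is a description only.

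Levels between genes were compared per length, as TPM (counts divided by gene length, then scaled to the same sum in each embryo). Over the 12 embryos Lfng had the highest mean level, 17.4 ± 4.11 TPM, and Dll1 followed with 11.5 ± 3.81 TPM (SD, n = 12 here and below). Cyp26a1 averaged 9.66 ± 4.20 TPM, Wnt3a 6.59 ± 2.23 TPM, Dll3 4.75 ± 1.59 TPM, Msgn1 3.79 ± 4.38 TPM and Tbx6 2.52 ± 2.62 TPM. Hes7, Mesp2 and Ripply2 were rare, at 0.501 ± 0.379, 0.314 ± 0.316 and 0.0909 ± 0.0745 TPM. Lfng stood above Dll1 by more than either SD, and each of the other neighbouring pairs in this order differed by less than the larger of their SDs. Lfng, Dll1, Wnt3a and Dll3, which are also neural, and Cyp26a1 thus had higher mean levels per length than Msgn1, Tbx6, Hes7 and Mesp2.

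The restricted genes also varied most. On the log2 CPM scale the SD over 12 embryos was 1.997 for Msgn1, 1.27 for Mesp2, 1.25 for Tbx6 and 1.06 for Hes7, against 0.63 for Cyp26a1, 0.47 for Wnt3a, 0.46 for Dll3, 0.42 for Dll1 and 0.27 for Lfng. Msgn1, Mesp2, Tbx6 and Hes7 also had low counts in some embryos (0 to 258, 2 to 51, 15 to 521 and 8 to 83.5), so counting error adds to their SDs. The log2 value of Msgn1 in wild-type embryo 2, with 0 counts, is set by the prior count. Knockout embryo 4 had the highest value of 7 of the 10 genes, and wild-type embryo 2 the lowest of 4. In mean z score over the 9 genes, knockout embryo 4 stood at 1.33 and knockout embryo 2 at 0.845, while wild-type embryos 2 and 1 stood at -1.07 and -0.829. The other knockout embryos, 1 and 3, stood below zero at -0.178 and -0.228, so the genotypes did not separate.

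**Figure D1:**
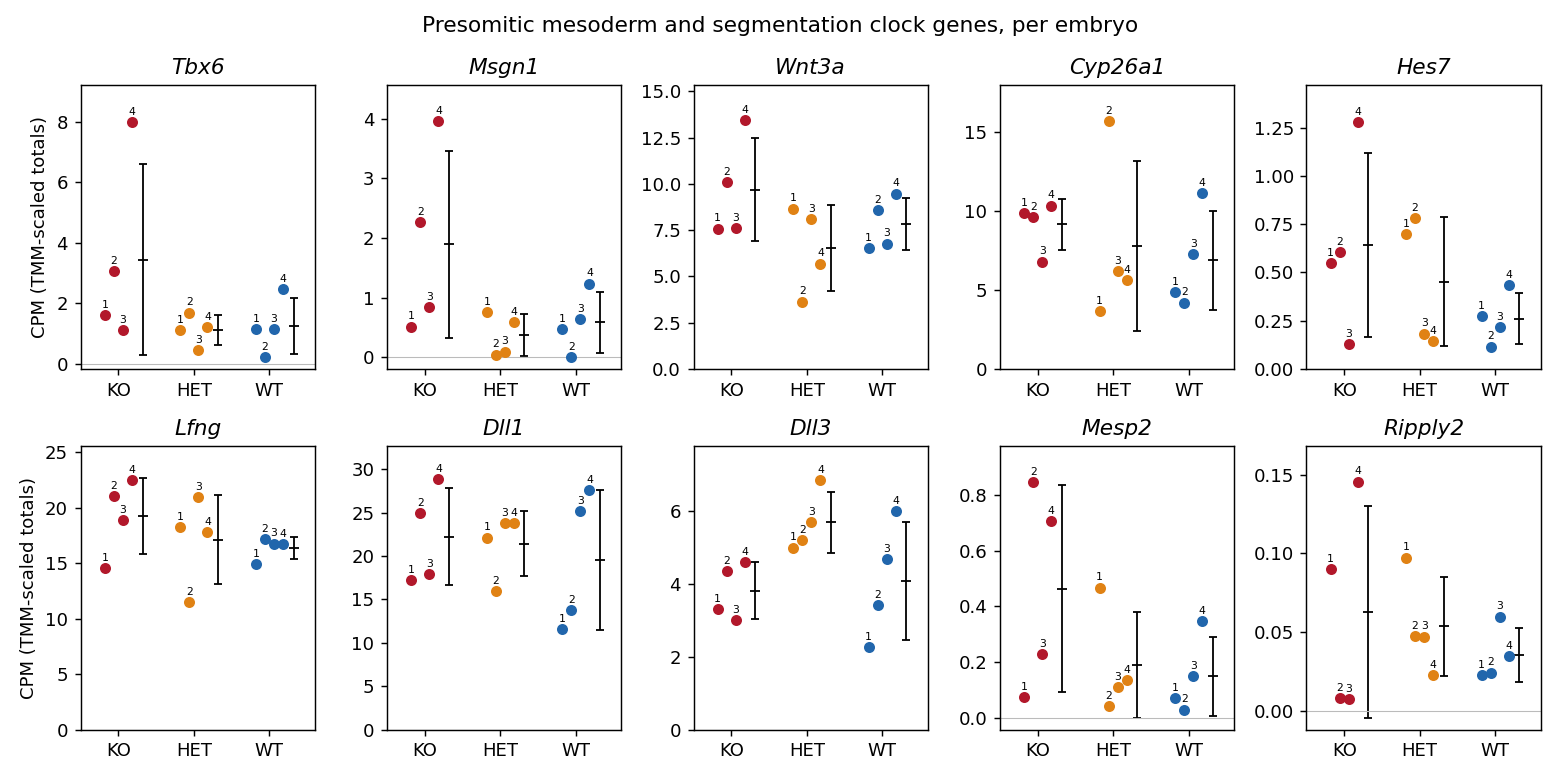
CPM of each gene in every embryo (points, numbered as in the text), with the mean and SD of each genotype beside them (n = 4 each); KO is knockout, HET heterozygous and WT wild-type. Knockout embryo 4 is the highest point for 7 genes, and apart from Dll3 in knockout and heterozygous embryos no pair of genotypes separates.

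Across all genes, edgeR's quasi-likelihood test with Benjamini-Hochberg adjustment called 0 genes (0.0% of 20771) between knockout and wild-type embryos, 0 (0.0%) between knockout and heterozygous embryos and 0 (0.0%) between heterozygous and wild-type embryos. None of the 9 genes that passed the filter was called in any of these. At an unadjusted p under 0.05, 8.33% of all genes passed between knockout and wild-type embryos (4.25% higher and 4.08% lower in knockout) and 0 of the 9. Between knockout and heterozygous embryos 7.4% of all genes passed in either direction, and 3.61% were higher in knockout. Among those were 2 of the 9, Tbx6 and Msgn1. This comparison also differs in sex, since Ddx3y was above 1 CPM in 3 knockout and 0 heterozygous embryos. Between heterozygous and wild-type embryos the shares were 1.01% of all genes and 0 of the 9. DESeq2 called 0.587%, 0.313% and 0.0193% of all genes in the same 3 comparisons, with 0 of the 9 in each, and limma voom with sample weights called 0.0% in each.

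Most estimates were nonetheless positive in knockout embryos. Of the 9 genes, 8 had a positive log2 fold change between knockout and wild-type embryos, with a median of 0.41, where 51.3% of all genes were positive and their median was 0.011. Between knockout and heterozygous embryos 8 of the 9 were positive with a median of 0.51, where 49.9% of all genes were positive and their median was -0.00055. Both comparisons use the same knockout embryos. Without knockout embryo 4 the counts were 8 of 9 against wild-type and 6 of 9 against heterozygous embryos, with medians of 0.36 and 0.19. Without the library labelled heterozygous 2, 7 of 9 were positive between knockout and heterozygous embryos, with a median of 0.83. Between heterozygous and wild-type embryos 6 of the 9 were positive with a median of 0.13, where 48.4% of all genes were positive; without wild-type embryo 2 the count was 4.

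**Figure D2:**
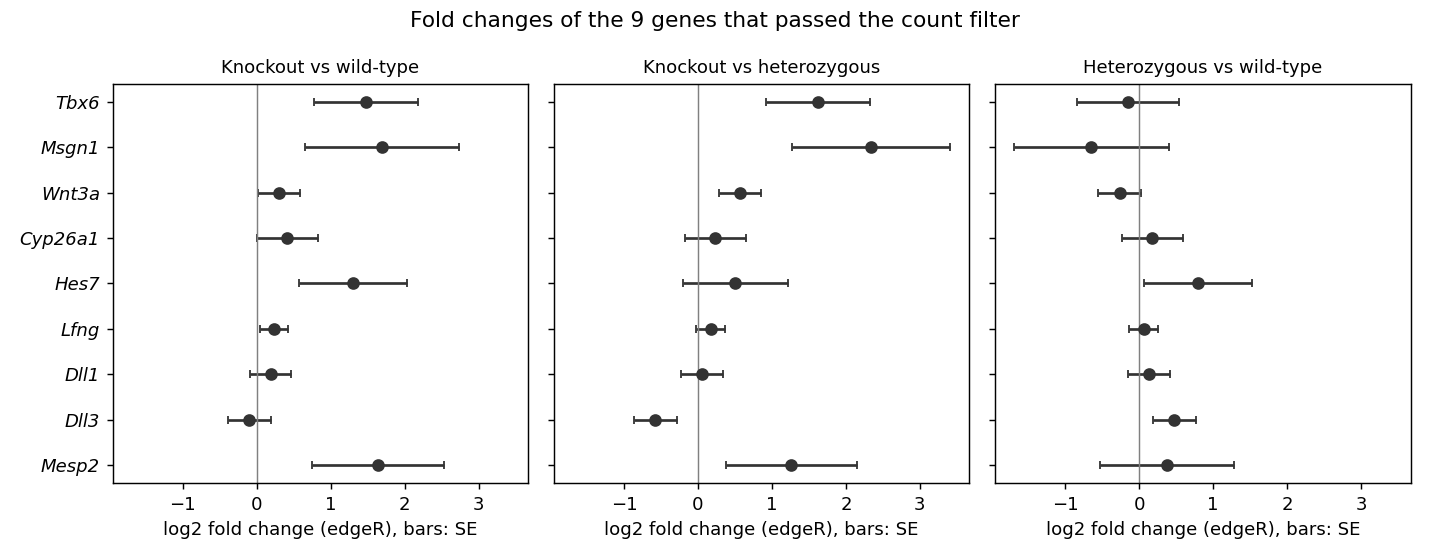
Log2 fold changes from edgeR for the 9 genes that passed the count filter, with bars of 1 SE, in 3 comparisons; positive values mean higher in the group named at the start of each panel title. Tbx6, Msgn1, Mesp2 and Hes7 have the widest bars, Dll3 is the single gene below zero between knockout and wild-type and between knockout and heterozygous embryos, and no estimate passed the adjusted threshold.

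Wnt3a, the ligand of the tailbud and dorsal neural tube (GRCm39 chr11:59138859-59181579, - strand), had 7.58, 10.1, 7.62 and 13.5 CPM in knockout embryos 1 to 4. It had 8.66, 3.63, 8.10 and 5.69 CPM in heterozygous embryos and 6.54, 8.58, 6.77 and 9.47 CPM in wild-type embryos. The library labelled heterozygous 2 was lowest and knockout embryo 4 highest, and all 3 genotypes overlapped. EdgeR gave log2 fold changes of 0.31 ± 0.28 (SE) between knockout and wild-type, 0.57 ± 0.29 between knockout and heterozygous and -0.26 ± 0.28 between heterozygous and wild-type embryos. Without the library labelled heterozygous 2, the value between knockout and heterozygous embryos was 0.37 ± 0.25 and that between heterozygous and wild-type embryos -0.07 ± 0.25.

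Cyp26a1, the enzyme that clears retinoic acid from the tailbud (chr19:37686186-37689984, + strand), had 9.88, 9.60, 6.79 and 10.3 CPM in knockout embryos. Heterozygous embryos had 3.65, 15.7, 6.19 and 5.61 CPM and wild-type embryos 4.85, 4.20, 7.28 and 11.2 CPM. The 15.7 CPM belong to the library labelled heterozygous 2, the highest of all 12, and the groups overlapped. The log2 fold change between knockout and wild-type embryos was 0.41 ± 0.41 and that between knockout and heterozygous embryos 0.24 ± 0.41. Without the library labelled heterozygous 2, knockout exceeded heterozygous embryos by 0.83 ± 0.33 on the log2 scale, with an unadjusted p of 0.0284 and an adjusted p of 0.536 from edgeR, so this value depended on that library. Between heterozygous and wild-type embryos the estimate was 0.18 ± 0.41 with it and -0.42 ± 0.33 without it.

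Tbx6, the T-box factor of the presomitic mesoderm (chr7:126380655-126384720, + strand), had 1.61, 3.07, 1.11 and 7.99 CPM in knockout embryos. It had 1.12, 1.69, 0.457 and 1.202 CPM in heterozygous embryos, and 1.14, 0.217, 1.14 and 2.46 CPM in wild-type embryos. Knockout embryo 4 exceeded wild-type embryo 2 by 36.7-fold, while knockout embryos 1 and 3 lay within the wild-type range. The mean was 3.44 ± 3.14 CPM in knockout, 1.12 ± 0.507 CPM in heterozygous and 1.24 ± 0.922 CPM in wild-type embryos (SD, n = 4 each). The log2 fold change between knockout and wild-type embryos was 1.48 ± 0.70, with an edgeR p of 0.0533 and an adjusted p of 0.602; an exact two-sided permutation test gave 0.2. Between knockout and heterozygous embryos it was 1.62 ± 0.70, with an edgeR p of 0.0370 and an adjusted p of 0.657. Without knockout embryo 4 these values were 0.65 and 0.80, and between heterozygous and wild-type embryos the estimate was -0.15 ± 0.69. Leaving out the library labelled heterozygous 2, knockout against heterozygous embryos gave 1.89 ± 0.80 and heterozygous against wild-type embryos -0.41 ± 0.77. Xist was high in the embryos without Ddx3y above 1 CPM, and it was fitted as a covariate for sex. That fit gave 2.11 between knockout and wild-type embryos and 0.65 between knockout and heterozygous embryos.

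Msgn1, the bHLH factor of early presomitic mesoderm (chr12:11258383-11258949, - strand), had 0.512, 2.27, 0.840 and 3.95 CPM in knockout embryos. It had 0.758, 0.0423, 0.0914 and 0.584 CPM in heterozygous embryos and 0.465, 0, 0.644 and 1.23 CPM in wild-type embryos. Wild-type embryo 2 had no Msgn1 count, which allows up to 0.0435 CPM by 3 counts of its library total (counting error only), and knockout embryo 4 was at least 91.0-fold higher than that limit. Knockout embryos 4 and 2 were above every other embryo, and knockout embryos 1 and 3 lay among the heterozygous and wild-type ones. The log2 fold change was 1.70 ± 1.04 between knockout and wild-type embryos, with an edgeR p of 0.126 and an adjusted p of 0.668. It was 2.34 ± 1.07 between knockout and heterozygous embryos, with an edgeR p of 0.0466 and an adjusted p of 0.672, and the exact permutation p was 0.114. Without the library labelled heterozygous 2 that value was 1.98 ± 1.11, with an unadjusted edgeR p of 0.100. Between heterozygous and wild-type embryos the estimate was -0.65 ± 1.04, or -0.29 ± 1.07 without that library. Without knockout embryo 4, the estimate between knockout and wild-type embryos was 1.05 ± 1.07. With the Xist covariate the estimates were 3.18 between knockout and wild-type embryos and 0.35 between knockout and heterozygous embryos.

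Hes7, the repressor at the core of the clock (chr11:69009778-69014880, + strand), had 0.548, 0.605, 0.130 and 1.28 CPM in knockout embryos. It had 0.6999, 0.782, 0.183 and 0.144 CPM in heterozygous embryos and 0.275, 0.116, 0.217 and 0.434 CPM in wild-type embryos. Knockout embryo 3 was among the lowest of all 12, so the knockout embryos spanned nearly the whole range. Estimated log2 fold changes were 1.30 ± 0.73 between knockout and wild-type embryos (edgeR adjusted p = 0.635), 0.51 ± 0.71 between knockout and heterozygous and 0.80 ± 0.73 between heterozygous and wild-type embryos. Without knockout embryo 4 the estimate between knockout and wild-type embryos was 0.71 ± 0.74, and that between knockout and heterozygous embryos -0.08 ± 0.73. With the library labelled heterozygous 2 left out, knockout against heterozygous embryos gave 0.90 ± 0.78 and heterozygous against wild-type embryos 0.41 ± 0.77. An antisense gene, 9130213A22Rik, overlaps Hes7 exons, and reads of the 2 genes cannot be told apart because strand was not used. It was also highest in knockout embryo 4, with 0.996 CPM, the remaining 11 embryos lying between 0.0145 and 0.344 CPM.

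Lfng, the Notch-modifying glycosyltransferase (chr5:140593096-140601300, + strand), had 14.6, 21.1, 18.9 and 22.5 CPM in knockout embryos. Heterozygous embryos had 18.3, 11.5, 21.0 and 17.8 CPM and wild-type embryos 14.9, 17.2, 16.8 and 16.7 CPM. It was the steadiest gene, and its highest embryo had 1.958 times the level of its lowest; the wild-type embryos averaged 16.4 ± 0.998 CPM. Its log2 fold change was 0.23 ± 0.19 between knockout and wild-type embryos, 0.17 ± 0.19 between knockout and heterozygous embryos and 0.06 ± 0.19 between heterozygous and wild-type embryos. Without the library labelled heterozygous 2, the lowest of all 12 in Lfng, the last 2 values were 0.02 ± 0.16 and 0.21 ± 0.16.

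Dll1, the activating Notch ligand (chr17:15587616-15597275, - strand), had 17.2, 24.9, 17.9 and 28.9 CPM in knockout embryos. It had 22.1, 15.95, 23.8 and 23.8 CPM in heterozygous embryos and 11.6, 13.8, 25.1 and 27.6 CPM in wild-type embryos. The wild-type embryos fell into a low pair and a high pair, and these pairs carry the title numbers 18 and 4. Fold changes on the log2 scale were 0.19 ± 0.28 between knockout and wild-type embryos, 0.05 ± 0.28 between knockout and heterozygous and 0.13 ± 0.28 between heterozygous and wild-type embryos. The last 2 were -0.07 ± 0.29 and 0.25 ± 0.29 without the library labelled heterozygous 2.

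Dll3, the Notch ligand relative that acts in cis against signalling (chr7:27992980-28001210, - strand), had 3.31, 4.34, 2.99 and 4.60 CPM in knockout embryos. It had 4.99, 5.197, 5.68 and 6.84 CPM in heterozygous embryos and 2.25, 3.41, 4.67 and 5.99 CPM in wild-type embryos. Every knockout embryo lay below every heterozygous one, and both overlapped the wild-type embryos, which spanned a wider range. Dll3 was the 1 of the 9 genes whose knockout and heterozygous embryos did not overlap, where 1.93% of all genes lay lower and 1.51% higher without overlap. The log2 fold change between knockout and heterozygous embryos was -0.58 ± 0.29, with an edgeR p of 0.0663 and an adjusted p of 0.692; the exact permutation p was 0.0286, the smallest that 4 embryos against 4 can give. Without the library labelled heterozygous 2 the value was -0.62 ± 0.31. Between knockout and wild-type embryos the estimate was -0.10 ± 0.29, and between heterozygous and wild-type embryos 0.48 ± 0.29, or 0.52 ± 0.31 without that library.

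No gene separated knockout from wild-type embryos without overlap (0 of 9, where 1.6% of all genes lay higher and 1.82% lower), and none separated heterozygous from wild-type embryos (0 of 9, where 0.414% lay higher and 0.448% lower).

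Mesp2, the bHLH factor that places the segment boundary (chr7:79460475-79463179, + strand), had 0.0731, 0.845, 0.229 and 0.705 CPM in knockout embryos, from 4, 51, 15 and 46 counts. Heterozygous embryos had 0.467, 0.0423, 0.110 and 0.135 CPM and wild-type embryos 0.0689, 0.0290, 0.150 and 0.347 CPM. Knockout embryos 2 and 4 were above all others, and knockout embryo 1 was among the 4 lowest. Knockout and wild-type embryos differed by a log2 fold change of 1.64 ± 0.90, with an edgeR p of 0.0903 and an adjusted p of 0.631. It was 1.26 ± 0.88 between knockout and heterozygous embryos and 0.37 ± 0.90 between heterozygous and wild-type embryos. These 2 were 0.95 ± 0.92 and 0.69 ± 0.93 without the library labelled heterozygous 2. Limma voom with sample weights gave 0.25 between knockout and wild-type embryos, with an unadjusted p of 0.773, and 0.40 between knockout and heterozygous embryos.

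Ripply2, the factor that ends the Mesp2 and Tbx6 programme (chr9:86897590-86902494, + strand), had 4.92, 0.5, 0.5 and 9.5 estimated counts in knockout embryos. It had 6.67, 2.25, 2.58 and 1.33 in heterozygous embryos and 1.33, 1.67, 4 and 2 in wild-type embryos. In 8 of the 12 embryos this was under 3 counts, so no difference was detectable at this depth. Part of these counts is shared: its exons overlap those of Gm57850 on the same strand, which had 25.1 to 31.2 CPM, and reads over several genes were split between them.

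The numbers at the start of the titles went with some of these levels, as with those of many other genes. Over the 4 embryos each of numbers 18 and 4, Tbx6 had 0.217 to 1.136 CPM under 18 and 1.138 to 3.07 CPM under 4, which just separates them. Dll1 had 11.6 to 22.1 CPM under 18 and 23.8 to 27.6 CPM under 4. Both lay lower under 18 without overlap, where 10.1% of all genes lay lower and 10.1% higher, so such a separation is not particular to these genes. Within number 4 the log2 difference between the knockout embryo and the mean of the 2 wild-type embryos was 0.86 for Tbx6, 1.32 for Msgn1, 1.74 for Mesp2 and 0.90 for Hes7. Within number 18 it was 1.08 for Tbx6, 2.77 for Msgn1, 1.72 for Mesp2 and -0.47 for Hes7. These are single knockout embryos, so the differences have no replicate check, and knockout embryo 4 is not in either number. With the number as a block in the fit, the log2 fold changes between knockout and wild-type embryos were 0.64 for Tbx6, 1.77 for Msgn1, 1.90 for Mesp2 and 0.39 for Hes7. Between knockout and heterozygous embryos the block gave 0.38 for Tbx6, 1.42 for Msgn1 and 0.38 for Mesp2. Knockout embryo 4 (number 15) and heterozygous embryo 3 (number 4.1b) are each alone in their number. The block therefore fits these embryos exactly, and they add nothing to the genotype estimates here or in the lists below. Number 14 holds only knockout embryo 1 and the library labelled heterozygous 2.

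**Figure D3:**
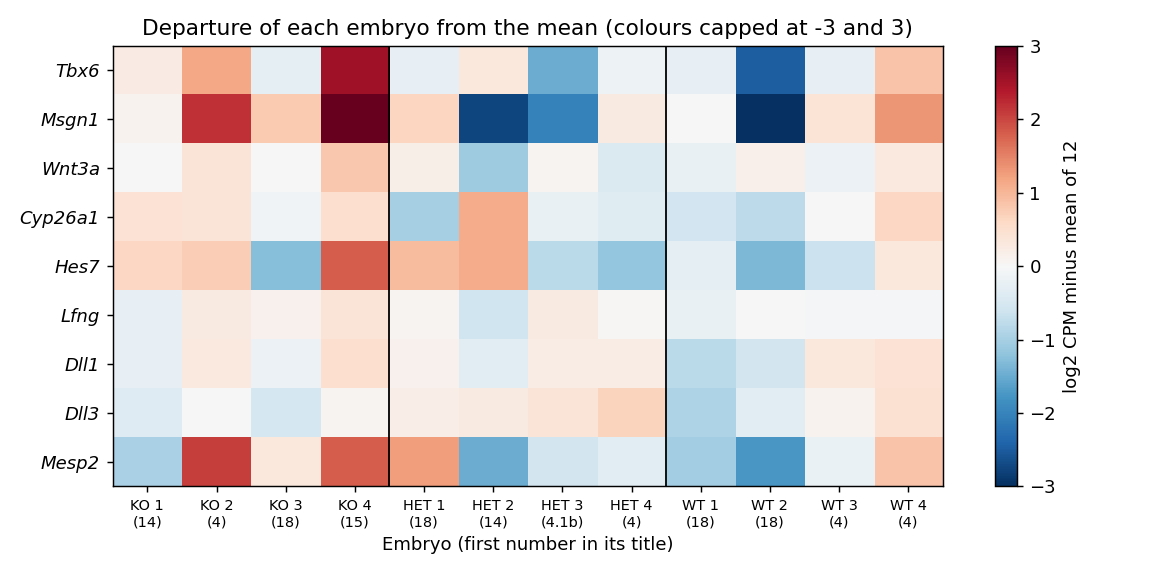
Log2 CPM of the 9 genes minus each gene's mean over 12 embryos, with embryos in columns, genotypes split by black lines and the number from each title in brackets; colours are capped at -3 and 3. Tbx6, Msgn1 and Mesp2 are high in knockout embryos 2 and 4 and low in wild-type embryo 2, Msgn1 is also low in the library labelled heterozygous 2 and in heterozygous embryo 3, and Lfng stays near white.

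Most pairs of these genes correlated positively, though the share among pairs of other genes is not given here. Of the 36 pairs among the 9 genes, 32 had a positive Pearson correlation of log2 CPM over the 12 embryos, with a median of 0.46 and a range of -0.28 to 0.86. After each genotype's mean was subtracted the median was 0.45. With permutation p-values adjusted over the 36 pairs, 9 passed 0.05 by Pearson's r and 4 by Spearman's rho. The pairs that passed by rho were Msgn1 with Mesp2, Mesp2 with Dll1, Tbx6 with Cyp26a1 and Msgn1 with Dll1. Tbx6 with Cyp26a1 and Msgn1 with Dll1 each had rho = 0.77 (permutation, adjusted p = 0.0454). Their r was 0.63 and 0.60 (permutation, adjusted p = 0.0879 and 0.114). The embryos share library scaling and overlap in title number, and fewer than 6 embryos carry any 1 number, so the correlations could not be repeated within a number.

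Msgn1 and Mesp2, the presomitic mesoderm factor and the boundary gene, were the closest pair, with r = 0.86 (permutation p = 0.00034, adjusted 0.0122) and rho = 0.95 (permutation p = 1e-05, the smallest given by 100000 permutations, adjusted 0.00036). Without the 2 embryos farthest from the median of Msgn1, r was 0.79. Tbx6 and Msgn1 had r = 0.82 (permutation p = 0.00135, adjusted 0.0202) and rho = 0.60 (permutation p = 0.0414, adjusted 0.149), and r was 0.56 without the 2 farthest embryos. Tbx6 and Hes7 had r = 0.77 (permutation p = 0.00205, adjusted 0.0202) and rho = 0.73 (permutation p = 0.00858, adjusted 0.0618), with r = 0.57 without the 2 farthest.

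The 2 delta genes, Dll1 and Dll3, had r = 0.75 (permutation p = 0.00544, adjusted 0.0392) and rho = 0.51 (permutation p = 0.0936, adjusted 0.211). Their r was 0.91 once genotype means were subtracted and 0.49 without the 2 embryos farthest from the Dll1 median. Lfng and Wnt3a had r = 0.81 (permutation p = 0.00224, adjusted 0.0202) and rho = 0.67 (permutation p = 0.0207, adjusted 0.0931), but r fell to 0.41 without the 2 embryos farthest from the Lfng median, so that relation rested largely on them. Mesp2 and Dll1 had r = 0.74 (permutation p = 0.00679, adjusted 0.0407) and rho = 0.78 (permutation p = 0.00385, adjusted 0.0454), with r = 0.68 without the 2 farthest.

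**Figure D4:**
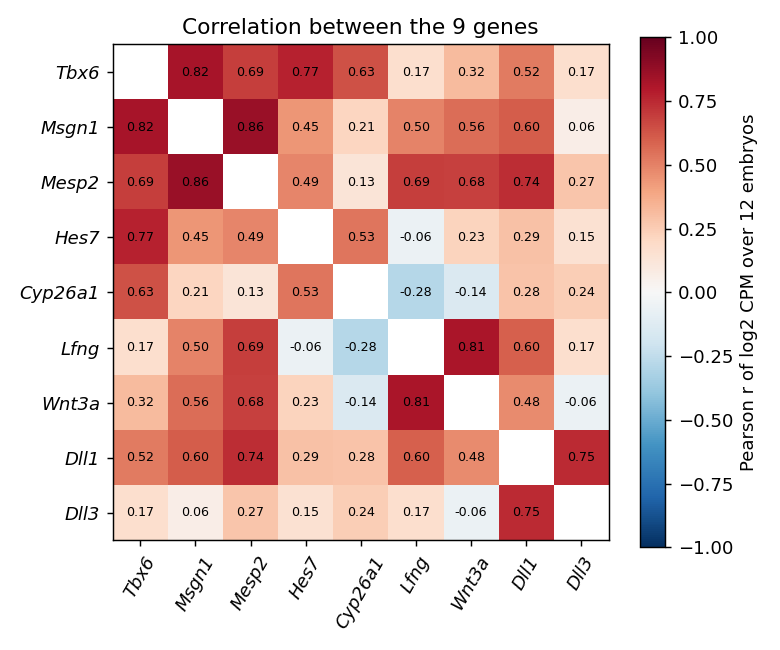
Pearson correlation of log2 CPM between each pair of the 9 genes over 12 embryos (numbers and colours; the scale runs from -1 to 1). The block of Tbx6, Msgn1 and Mesp2 holds values of 0.69 to 0.86, and the lowest value is -0.28, between Cyp26a1 and Lfng.

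Outside these 10 genes, 20762 genes were ranked by how closely their log2 CPM followed the mean z score of the 9 genes over the 12 embryos, as a description. Among the most alike were Dimt1 (r = 0.94), Tnk2os (0.92), Gm51543 (0.92), Taf4b (0.90), Sall1 (0.90), Greb1l (0.89), Ankrd23 (0.89), Gm34223 (0.89) and Mamdc4 (0.89). Sall1 encodes a zinc finger factor and Greb1l a protein needed for kidney development, and the search used the same embryos and so offers no independent check.

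Tailbud and presomitic mesoderm regress as the trunk forms, so the levels were set beside an index of developmental stage built from expression alone. The index is the mean z score of genes that are higher later (neuronal, muscle and cartilage genes) less the mean z score of genes that decline (Lin28a, Lin28b, Trim71 and Dnmt3b). None of the 10 genes is in it, and stages of single embryos are not in the labels, which state that staging was refined computationally. It was -0.913, -1.83, 0.435 and -3.56 in knockout embryos, 2.11, 0.104, -0.0099 and 0.424 in heterozygous embryos and 1.62, 1.97, -0.0267 and -0.329 in wild-type embryos. Knockout embryos 4 and 2, the highest in Msgn1, had the lowest index values, and wild-type embryo 2, the lowest in Tbx6, had one of the highest.

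All 9 genes correlated negatively with the index over the 12 embryos. The share of all genes that did so is not given here, so this is not shown to be particular to the 9. For Tbx6, r was -0.80 (permutation p = 0.00313, adjusted over 9 genes 0.0282) and rho -0.78 (permutation p = 0.00389, adjusted 0.0202). Its r was -0.72 without the 2 embryos farthest from the median index and -0.69 after genotype means were subtracted. For Cyp26a1, r was -0.70 (permutation p = 0.0099, adjusted 0.0445) and rho -0.78 (permutation p = 0.0045, adjusted 0.0202), with r = -0.68 without the 2 farthest embryos and -0.66 within genotypes. Msgn1 had r = -0.61 and Dll1 r = -0.60 (permutation, adjusted p = 0.0826 for each). The values for Hes7, Mesp2, Wnt3a, Lfng and Dll3 were -0.56, -0.55, -0.45, -0.39 and -0.22, and none of these passed after adjustment. After genotype means were subtracted, r was -0.72 for Dll3, the strongest of the 9 genes, and -0.68 for Dll1. It was -0.49 for Hes7, -0.38 for Msgn1, -0.35 for Mesp2, -0.23 for Wnt3a and -0.20 for Lfng.

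With the index as a covariate in the edgeR fit, the log2 fold change between knockout and wild-type embryos was -0.10 for Tbx6, 0.65 for Msgn1, 0.98 for Mesp2, 0.23 for Hes7 and -0.28 for Cyp26a1. Of the 9 estimates, 5 were then positive between knockout and wild-type embryos and 4 between knockout and heterozygous embryos. For Dll3, the fold change between knockout and heterozygous embryos was -1.07 with the covariate. Genotype and index overlap in these embryos, since 3 of the 4 knockout values lie below all values of the other genotypes, so the part of each cannot be told apart here. The index also goes with the title number. It was 0.435 to 2.11 in the embryos of number 18 and -1.83 to 0.424 in those of number 4. Correlations with the index, also those within genotypes, therefore cannot be told apart from title number.

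**Figure D5:**
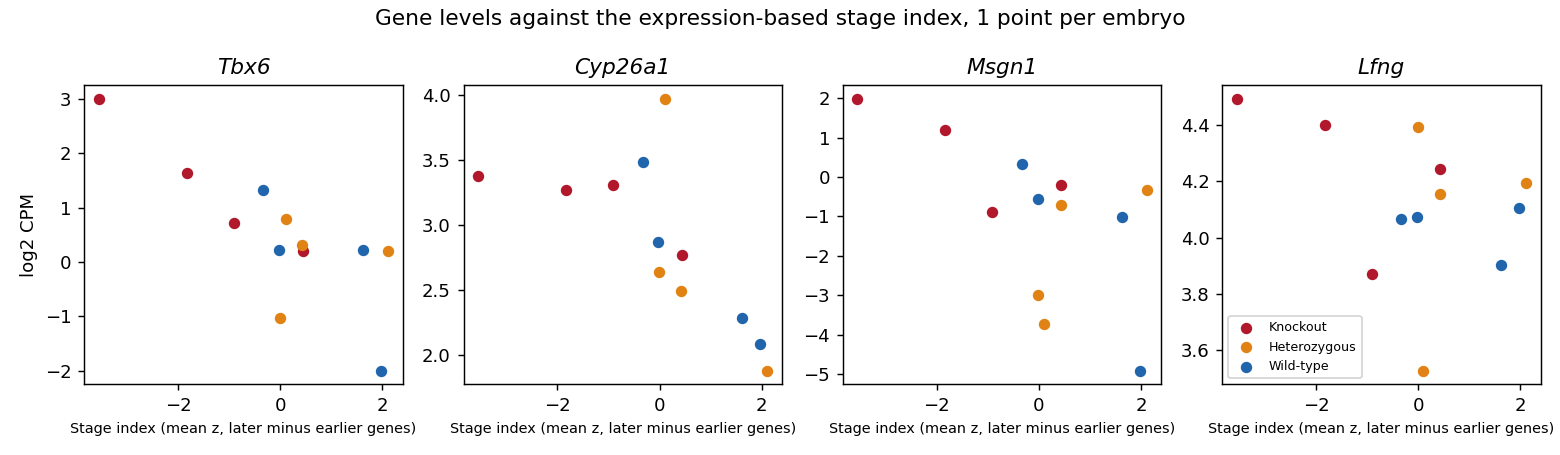
Log2 CPM of Tbx6, Cyp26a1, Msgn1 and Lfng (vertical axes, a separate scale for each) against the expression-based stage index (horizontal axes), with 1 point per embryo coloured by genotype. Tbx6 and Cyp26a1 decline along the index (r = -0.80 and -0.70), Msgn1 less evenly (r = -0.61), and Lfng shows little trend (r = -0.39).

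Genes that share the tissue or pathways of these 10 were read from lists, by counts and medians, beside the 4.25% of all genes that were higher and the 4.08% that were lower between knockout and wild-type embryos at an unadjusted p under 0.05. In the tailbud progenitor list, 16 of 17 genes had positive estimates between knockout and wild-type embryos, 9 at an unadjusted p under 0.05 and 0 after adjustment by edgeR, with a median log2 fold change of 0.81. Between knockout and heterozygous embryos 17 of 17 were positive, 7 of them at an unadjusted p under 0.05, where 3.61% of all genes were higher. Without the library labelled heterozygous 2, 16 were positive in that comparison and 6 passed. With the stage index as a covariate 9 were positive in it and the median was 0.10. At the unadjusted level 1 was then higher and 1 lower. Without knockout embryo 4 the unadjusted count between knockout and wild-type embryos was 3, and with the stage index as a covariate it was 1. In that covariate fit 14 of the 17 estimates between knockout and wild-type embryos were positive, with a median of 0.23. Hes3, a transcriptional repressor of the hairy family, averaged 3.30 ± 2.66 CPM in the knockouts, against 0.801 ± 0.314 CPM in the wild-types (log2 fold change 2.04 ± 0.60). Notum, an enzyme that inactivates Wnt proteins, averaged 12.2 ± 3.51 CPM in the knockouts, against 6.95 ± 1.23 CPM in the wild-types (0.81 ± 0.24), and these groups did not overlap. The most abundant of the list, Wnt5a and Gdf11, had log2 fold changes of 0.12 ± 0.22 and 0.03 ± 0.34. T, the brachyury factor of the tailbud, was chosen after its values were seen; it had 2.06, 3.29, 1.60 and 9.44 CPM in the knockouts, against 0.904, 0.362, 1.03 and 2.68 CPM in the wild-types, with the extremes in the same embryos as Tbx6.

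Targets of the pathways that drive the clock gave smaller values. Of 12 Wnt target genes, 10 were positive between knockout and wild-type embryos and 3 passed an unadjusted p of 0.05, with a median of 0.32. Without knockout embryo 4, 10 were positive and 0 passed, and without wild-type embryo 2 1 passed. With the stage index as a covariate 12 were positive, 0 passed and the median was 0.22. Tcf7, a Wnt-responsive factor, averaged 52.1 ± 15.3 CPM in the knockouts, against 35.1 ± 5.69 CPM in the wild-types, and Myc 40.6 ± 18.6 against 24.2 ± 4.14 CPM. Both overlapped between the groups. The most abundant Wnt targets, Ccnd1 and Tnfrsf19, had log2 fold changes of 0.15 ± 0.22 (with overlap) and 0.20 ± 0.13 (without). Of 10 Fgf target genes all 10 were positive and 2 passed at the unadjusted level, with a median of 0.45. Without wild-type embryo 2, 0 of the Fgf targets passed, and with the stage index as a covariate 7 were positive, 0 passed and the median was 0.12. The transcription factor Etv5 averaged 67.6 ± 18.4 CPM in the knockouts, against 45.0 ± 12.1 CPM in the wild-types, and Spry4, an Fgf pathway inhibitor, 19.6 ± 4.07 against 13.6 ± 3.56 CPM. Spred1 and Dusp6, the most abundant Fgf targets, had log2 fold changes of 0.34 ± 0.19 and 0.40 ± 0.26. All of these overlapped between the groups. Of 8 Notch target genes 1 was positive, 0 passed and the median was -0.22; with the title number as a block 5 were positive and the median was 0.15. Of 22 core Notch genes 15 were positive, with 1 higher and 1 lower at the unadjusted level, close to the shares of all genes, and 0 of either with the title number as a block. The lower one was Mfng, a relative of Lfng, with 18.04 ± 2.92 CPM in the knockouts, against 24.7 ± 2.03 CPM in the wild-types, and no overlap. The higher one was the ligand Jag1, with 55.2 ± 15.9 against 34.3 ± 11.9 CPM and overlapping groups. Mib1 and Adam10, the most abundant core Notch genes, had log2 fold changes of 0.20 ± 0.27 and -0.11 ± 0.16. No gene of these lists passed after adjustment by edgeR.

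Downstream of the presomitic mesoderm, the 16 genes of the anterior presomitic mesoderm and segment boundary gave 6 positive estimates of 15 that passed the filter between knockout and wild-type embryos, with a median of -0.03; without knockout embryo 4, 9 were positive and the median was 0.06, and a block for the title number gave 11 and 0.13. Meox1, a homeobox gene of somites, averaged 54.0 ± 24.4 CPM in the knockouts, against 31.6 ± 8.16 CPM in the wild-types. Hes6, which is also neural, averaged 22.7 ± 6.48 CPM in the knockouts, against 34.7 ± 5.03 CPM in the wild-types. Meox1 and Hes6 both overlapped between the groups. Efnb2 and Epha4, the most abundant of this list, had log2 fold changes of -0.03 ± 0.19 and 0.04 ± 0.27. Of 10 genes of somite derivatives 2 were positive, with a median of -0.40 and 0 at an unadjusted p under 0.05. This direction turned with the title number as a block (6 positive, median 0.11) and with the stage index as a covariate (7 positive, 2 of them at an unadjusted p under 0.05, median 0.46), and the median was -0.23 without knockout embryo 4; the index holds Myog. Myog, of differentiating muscle, averaged 9.41 ± 4.57 CPM in the knockouts, against 21.9 ± 16.1 CPM in the wild-types, with overlap. Pax3 and Pax1, the most abundant of the somite derivative list, had log2 fold changes of 0.18 ± 0.32 and -0.45 ± 0.45. In the retinoic acid list 4 of 15 were positive with a median of -0.11, which was 0.11 with the stage index as a covariate and 0.03 without wild-type embryo 2. Cyp26c1, a relative of Cyp26a1, averaged 10.3 ± 6.15 CPM in the knockouts, against 3.81 ± 2.64 CPM in the wild-types, and the receptor Rxrg 1.89 ± 0.659 against 3.91 ± 2.37 CPM. Both overlapped between the groups. Crabp1 and Crabp2, the most abundant of the retinoic acid list, had log2 fold changes of -0.12 ± 0.21 and 0.21 ± 0.21.

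Lists of other tissues that express some of the 10 genes gave the following values, with 0 genes called after adjustment by edgeR. Of 10 genes of differentiated neurons 1 was positive between knockout and wild-type embryos and 6 were lower at an unadjusted p under 0.05, with a median of -0.84. With the title number as a block 5 were, with a median of -0.47, and with the stage index as a covariate 0 were, though the index holds some of these genes. Their summed level was 206.6 to 767.5 CPM in knockout, 669.6 to 1238 CPM in heterozygous and 735.1 to 1170 CPM in wild-type embryos. Tubb3, a neuronal tubulin, averaged 142.0 ± 80.4 CPM in the knockouts, against 326.6 ± 90.2 CPM in the wild-types without overlap. Of 15 genes of neural progenitors and newborn neurons 4 were positive, with 1 lower at an unadjusted p under 0.05 and a median of -0.23. The lower one was Mfng, which is also in the list of core Notch genes. With the title number as a block 11 were positive and the median was 0.23. With the stage index as a covariate 1 was positive, 0 passed and the median was -0.48. The summed level of the 15 genes was 129.5 to 178.8 CPM in knockout, 125.2 to 229.5 CPM in heterozygous and 106.5 to 201.5 CPM in wild-type embryos. Of 6 roof plate genes, a second site of Wnt3a, 5 were positive with a median of 0.12, and the median was -0.01 with the stage index as a covariate. Wnt1, Msx1 and Msx2 had log2 fold changes of 0.74 ± 0.39, 0.16 ± 0.25 and 0.01 ± 0.18 between knockout and wild-type embryos. The single gene with a negative estimate, Lmx1a, had -1.09 ± 0.41, and averaged 13.4 ± 4.43 CPM in the knockouts, against 28.5 ± 19.3 CPM in the wild-types.

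Of 8 genes of notochord and hindgut 7 were positive and 4 passed at the unadjusted level, with a median of 0.49. Cdx1 is in this list and in the tailbud progenitor list. With the stage index as a covariate 2 of the 8 genes passed and the median was 0.29. Foxa2, a forkhead factor, averaged 2.57 ± 0.755 CPM in the knockouts, against 1.11 ± 0.269 CPM in the wild-types without overlap. Cldn6 and Shh, the most abundant of this list, had log2 fold changes of 0.64 ± 0.20 and 0.33 ± 0.33, both with overlap. Of 7 limb bud genes 4 were positive with a median of 0.06, or 6 with a median of 0.26 without knockout embryo 4. The genes of the stage index itself were split as it was built: 0 of 11 later genes were positive (median -0.93) and 4 of 4 earlier genes were (median 1.32), and Lin28a averaged 187.3 ± 182.1 CPM in the knockouts, against 32.3 ± 28.8 CPM in the wild-types. The part of these tissues and of stage in the levels of the 10 genes was not tested beyond the covariate fit above.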

How the data were processed

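Per the labels, 12 whole embryos of 3 Mfsd12 genotypes were sequenced from 325 ng of total RNA with a stranded mRNA kit. The deposited table gives estimated counts (expected counts) for each gene, left unscaled by the authors. Per the file headers, they came from featureCounts 2.0.6 on the RefSeq annotation of GRCm39: mates were counted separately, reads with several hits or genes added fractions, and strand was not used. The submitters' processing notes also list DRAGEN but not what it was used for.

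Counts were rounded, filtered with filterByExpr (20771 of 41079 genes left) and scaled by TMM (factors 0.88325 to 1.054). The test was edgeR 4.0.16 (R 4.3.3), quasi-likelihood with robust dispersion, all 12 embryos in 1 fit, a mean per genotype, two-sided, Benjamini-Hochberg over all genes, threshold 0.05; the code was checked on simulated counts. SE was the fold change over the root of its F statistic. CPM uses TMM-scaled totals; log2 CPM a prior count of 2. Single genes were also compared by exact permutation of 4 embryos against 4, and correlations by 100000 permutations. Genes sharing reads with overlapping genes are uncertain. Alternatives were DESeq2 1.42.0, limma 3.58.1 voom, other scalings, filters and covariates, and leaving embryos out; leaving out knockout 4 with wild-type 2 was added after seeing the data.

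The members and gene lists were chosen with earlier results of these data known. Named genes were the 10, the 10 most like their mean z score, per list the 2 most abundant and the 2 with the smallest p, and Mfsd12; not all of these are printed, and 1 item is not reported here. Embryos were numbered in deposition order within a genotype, and no label says that any share a litter. Promoter sequences are RefSeq's, build GRCm38.p6; gene positions are the table's, GRCm39.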

Additional observations from a re-analysis of the deposited data

How the results depend on the processing

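No paired analysis was possible because the labels give no replicate numbers. The title number, of no stated meaning, was fitted as a block in its place. That block takes knockout embryo 4 and heterozygous embryo 3 out of the genotype estimates, since each is alone in its number. Of the 9 genes, 0 were called in each comparison under every alternative run. Across all genes, calls between knockout and wild-type embryos were 122 by DESeq2, 2 with the title number as a block, 19 without the library labelled heterozygous 2 and knockout embryo 3, and 0 to 1 with single embryos left out; between knockout and heterozygous embryos 65 by DESeq2, 33 without that pair and 0 to 1 with single embryos left out; and between heterozygous and wild-type embryos 4 by DESeq2. The cause was not tested.

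Of the single-gene estimates, 208 of 216 kept their direction between knockout and wild-type, 200 of 216 between knockout and heterozygous and 194 of 215 between heterozygous and wild-type embryos. Some settings could hardly turn a direction, so these shares do not measure how firm an estimate is. Leaving out a heterozygous embryo, for example, hardly changes an estimate between knockout and wild-type embryos. The estimates that turned, as log2 fold changes, follow. Between knockout and wild-type embryos, the stage index covariate gave -0.10 for Tbx6, -0.30 for Dll1 and -0.28 for Cyp26a1. Voom gave -0.20 and leaving out knockout 4 with wild-type 2 gave -0.095 for Dll1, and leaving out the library labelled heterozygous 2 with knockout 3 gave 0.014 for Dll3, which ranged from -0.30 to 0.14 with single embryos left out. Between knockout and heterozygous embryos, the stage index gave -0.16 for Tbx6, -0.70 for Hes7, -0.48 for Dll1 and -0.42 for Cyp26a1. The title block gave -0.47 for Hes7 and -0.059 for Dll1, voom gave -0.067 for Lfng and -0.22 for Dll1, and an Xist covariate gave -0.71 for Mesp2 and -0.27 for Dll1. Without knockout 4 and wild-type 2, Hes7 had -0.078 and Dll1 -0.093, and with single embryos left out they ranged from -0.078 to 0.90 and from -0.093 to 0.17. Between heterozygous and wild-type embryos, the title block gave 0.26 for Tbx6, 0.35 for Msgn1 and -0.25 for Cyp26a1, and the Xist covariate gave 1.47 for Tbx6 and 2.83 for Msgn1. The stage index gave 0.066 for Tbx6, and voom gave -0.15 for Mesp2, -0.41 for Hes7 and -0.51 for Cyp26a1. Cyp26a1 had -0.41 without the library labelled heterozygous 2 and knockout 3 and -0.0059 without knockout 4 and wild-type 2, which gave -0.0025 for Dll1. With single embryos left out, values ranged from -0.50 to 0.43 for Tbx6, -1.28 to 0.012 for Msgn1, -0.60 to 1.196 for Mesp2, -0.050 to 0.21 for Lfng, -0.049 to 0.35 for Dll1 and -0.42 to 0.51 for Cyp26a1. The low counts of Ripply2, Mesp2 and Msgn1 limit these values most.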
